A study of Mus musculus with 16 samples.

Results

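Kidney RNA of 8 vehicle-treated mice was compared between 2 ways of offering the same food: 4 mice had time-restricted and 4 had ad libitum access to a high-fat diet. These are 8 of the 16 libraries of the series, picked by the vehicle names of the count table's columns, and all 52338 genes of that table were considered. The other 8 libraries, also 4 for each feeding regimen, came from mice that had received FAN, a treatment the labels do not spell out (the column names carry the word folic). All 4 groups share the C57BL6 genotype, the high-fat diet and a kidney collected 15 days after FAN or vehicle. The length of the feeding window, the hour of collection, the age and the sex of the mice are not given in the sources used here. The labels list separate samples of a group without animal numbers, so p-values measure the spread between these samples. The question put by the comparison is what the feeding regimen alone did to kidney transcripts in mice that had not received FAN. Libraries are named by group and number, as in ad libitum 1.

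As background, a kidney tubule works mostly on fat: proximal tubule cells take up fatty acids and burn them in mitochondria to drive salt and solute uptake. In fasting, fatty acids bind the nuclear receptor PPAR-alpha, which switches on genes that import, shuttle and oxidise fat, spare glucose and make ketone bodies. Meal timing is also a time cue for the clocks of peripheral organs, which consist of activators (Clock, Arntl), their repressors (Per and Cry genes) and output factors (Dbp, Tef, Hlf). Other genes that react to feeding encode chaperones, which fold proteins in the cytosol (heat shock proteins) and in the endoplasmic reticulum (the unfolded protein response).

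No gene passed the threshold between the feeding regimens in vehicle kidneys. Of 17731 genes tested by edgeR's quasi-likelihood test, 0 (0%) had an adjusted p under 0.05, the smallest adjusted p was 0.0736, and 4 genes were below 0.1. An unadjusted p under 0.05 was reached by 1143 genes (6.45%), of which 554 (3.12%) were higher and 589 (3.32%) lower under time-restricted feeding. The libraries of the regimens did not overlap in 860 genes (4.85%): in 505 (2.85%) all 4 time-restricted libraries lay above all 4 ad libitum libraries, and in 355 (2%) all lay below. The log2 difference, time-restricted minus ad libitum, had a median of −0.01 over all genes, with quartiles of −0.18 and 0.12. The zero count depended on the test: DESeq2's Wald test called 58 genes (43 higher, 15 lower) and limma voom with sample weights 35 (30 higher, 5 lower), 33 of them called by both, while edgeR on the vehicle libraries alone called 1, Vnn1. Because no gene was called, genes below are described by their values, most of them chosen after those values were seen, and a gene said to be higher or lower is so in these 8 libraries only. The gene lists used below were chosen with earlier results of these data known. Their shares, set beside those of all genes, are descriptive and no independent test.

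Total counts ranged from 14124323 (time-restricted 4) to 33976660 (ad libitum 1), and 0 counts of a gene leave room for as much as 0.0883 CPM in the deepest and 0.212 CPM in the shallowest library. Transcripts of the mitochondrial genome took 17.2% to 22.8% of counts. Defining markers of every nephron segment were detected, and those of the proximal tubule summed to 51209.8 CPM in ad libitum 1 and to between 62391 and 71330 CPM in the other 7 libraries. Such a sum is set mostly by its most abundant markers. The proximal tubule transport list described below had a mean log2 CPM of 8.34 in ad libitum 1, against 8.17, 8.14 and 8.20 in ad libitum 2 to 4. Ad libitum and time-restricted libraries 1 and 2 carry early and libraries 3 and 4 late places on the sequencing sheet (sheet positions, read from the S number that ends a column name), so both regimens are balanced over them and differences within each are given where they matter. In bulk kidney RNA, fewer cells of a type and less RNA per cell cannot be told apart, which holds for every gene group below.

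**Figure D1:**
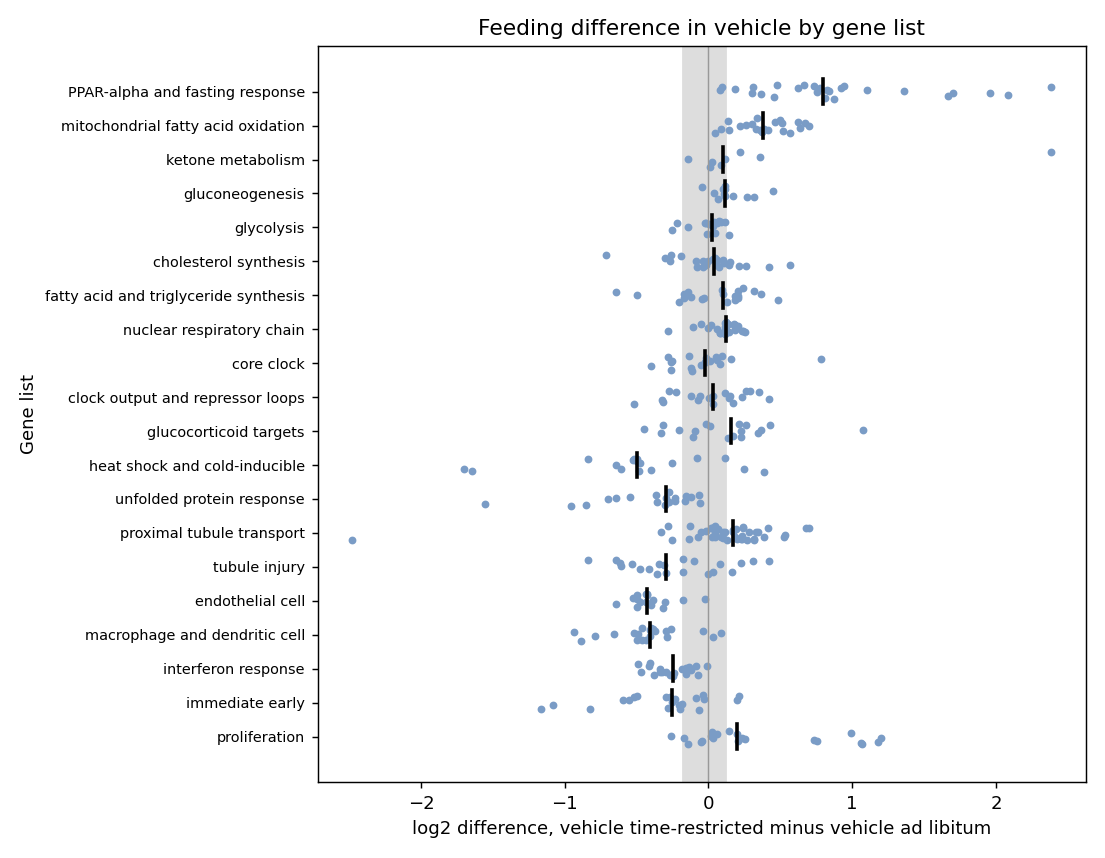
Each point is a tested member of a gene list, placed by its log2 difference, vehicle time-restricted minus vehicle ad libitum; black bars are list medians and the grey band spans the quartiles of all 17731 genes (−0.18 to 0.12). The PPAR-alpha and fasting list (median 0.80) and the mitochondrial fatty acid oxidation list (0.38) lie to the right, the heat shock list (−0.50) and the unfolded protein response list (−0.30) to the left, and the core clock list (−0.03) at 0.

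Genes that PPAR-alpha and fasting switch on were higher under time-restricted feeding. All 26 tested genes of the PPAR-alpha and fasting list had a positive log2 difference, with a median of 0.80 against −0.01 for all genes. An unadjusted p under 0.05 was reached by 15 of them, all higher, where 3.12% of all genes did so, and in 11 the 2 groups of libraries did not overlap, where 2.85% did. None passed the adjusted threshold. With 1 vehicle library left out at a time, 12 to 15 had an unadjusted p under 0.05. The median was 0.90 within the early and 0.56 within the late sheet positions. Fgf21, the remaining gene of the list, did not exceed 0.142 CPM of the raw total in any vehicle library and was not tested.

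The receptor itself did not stand out. Ppara (ENSMUSG00000022383, GRCm38 chromosome 15, 85734983 to 85802819) measured 15.4, 7.78, 6.76 and 8.39 CPM in ad libitum libraries 1 to 4 and 10.4, 9.96, 10.3 and 10 CPM in time-restricted libraries 1 to 4. Ad libitum 1 was the highest of the 8, and the groups overlapped, with a log2 difference of 0.08 ± 0.34 (SE, adjusted p = 0.997). The coactivator gene Ppargc1a, which drives mitochondrial gene expression, had a log2 difference of 0.09.

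Among the targets, Pdk4 encodes the kinase that shuts off pyruvate dehydrogenase and so spares glucose (ENSMUSG00000019577, GRCm38 chromosome 6, 5483351 to 5496309). It measured 24, 15.7, 28.1 and 27.3 CPM under ad libitum and 41.8, 131, 102.4 and 93.2 CPM under time-restricted feeding. Every time-restricted library exceeded every ad libitum library, time-restricted 1 by the least, and the log2 difference was 1.96 ± 0.38 (SE, adjusted p = 0.151). Angptl4 encodes a secreted inhibitor of lipoprotein lipase (ENSMUSG00000002289, GRCm38 chromosome 17, 33773750 to 33781830). Its level was 149, 113, 101.9 and 154 CPM in the ad libitum libraries and 219.8, 337, 301 and 257 CPM in the time-restricted ones, again without overlap, with a log2 difference of 1.11 ± 0.19 (SE, adjusted p = 0.091). Vnn1, which encodes a pantetheinase that frees pantothenate for coenzyme A (ENSMUSG00000037440, GRCm38 chromosome 10, 23894688 to 23905343), measured 144, 146, 149 and 175 CPM under ad libitum and 236, 327, 313 and 304.4 CPM under time-restricted feeding. The groups did not overlap, and the log2 difference of 0.95 ± 0.18 (SE, adjusted p = 0.127) was 0.94 within early and 0.94 within late sheet positions.

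Cyp4a14, a fatty acid omega-hydroxylase (ENSMUSG00000028715, GRCm38 chromosome 4, 115486200 to 115496142), measured 59.4, 53.2, 72.7 and 146 CPM in the ad libitum libraries and 277, 479.8, 569 and 77.8 CPM in the time-restricted ones. Time-restricted 4 was below ad libitum 4, so that the groups overlapped despite a log2 difference of 2.09 ± 0.81 (SE, adjusted p = 0.704). The related Cyp4a10 (0.92 ± 0.32) and Cyp4a31 (0.76 ± 0.27) overlapped as well. Cyp4a genes are near-identical copies that can share reads, so their separate values are uncertain.

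Plin5 coats lipid droplets and ties them to mitochondria (ENSMUSG00000011305, GRCm38 chromosome 17, 56111601 to 56117596). It measured 4.6, 5.36, 5.32 and 4.92 CPM under ad libitum and 11.7, 20.1, 12 and 7.9 CPM under time-restricted feeding, without overlap, for a log2 difference of 1.36 ± 0.36 (SE, adjusted p = 0.333). Plin2, the general lipid droplet coat, overlapped between groups, with a log2 difference of 0.31 ± 0.19 (SE, adjusted p = 0.867). Acot1 and Acot2, a pair of neighbouring and similar genes for cytosolic and mitochondrial acyl-CoA thioesterases, differed by 0.87 ± 0.29 (SE, adjusted p = 0.585) and 0.84 ± 0.23 (SE, adjusted p = 0.408). Pex11a, a peroxisome division factor outside the list (ENSMUSG00000030545, GRCm38 chromosome 7, 79735957 to 79743131), measured 85.2, 81.5, 72.3 and 87 CPM in the ad libitum libraries and 122, 121, 124 and 112 CPM in the time-restricted ones. Its libraries lay close together within each group and did not overlap, with a log2 difference of 0.55 ± 0.12 (SE, adjusted p = 0.186).

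**Figure D2:**
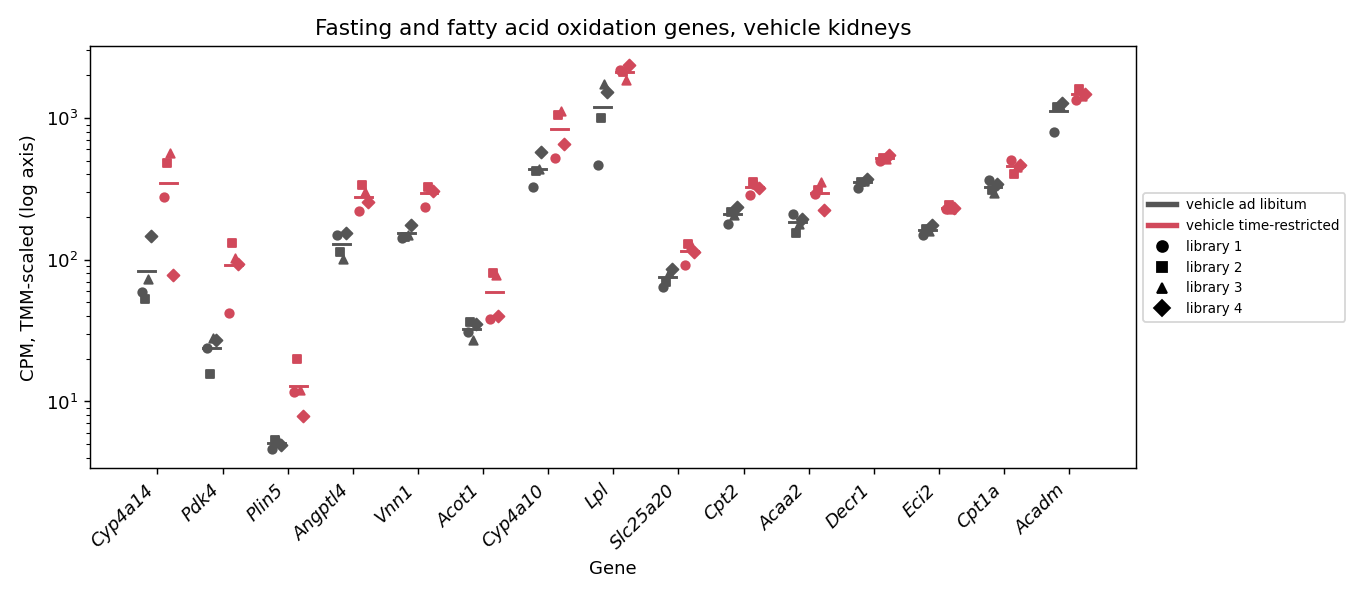
Level of 15 fasting and fatty acid oxidation genes in each vehicle library, in TMM-scaled CPM on a log axis; symbols give the library number, colours the feeding regimen and short lines the group mean (n = 4). Time-restricted libraries lie above ad libitum libraries in every gene shown except Cyp4a14 and Cyp4a10, where they overlap, and Cyp4a14 is spread widely within time-restricted feeding (77.8 to 569 CPM).

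The steps that carry fatty acids into mitochondria and break them down differed in the same direction. All 22 genes of the mitochondrial fatty acid oxidation list had a positive log2 difference, from 0.04 (Echs1, a hydratase) to 0.70 (Acsl1, which activates fatty acids), with a median of 0.38. An unadjusted p under 0.05 was reached by 15, all higher, and in 13 the groups did not overlap, beside 3.12% and 2.85% of all genes. Without 1 vehicle library at a time, 11 to 14 reached it, and the median was 0.49 in early and 0.32 in late sheet positions. None passed the adjusted threshold, and Slc25a20 belongs to both lists.

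Entry comes first. Slc22a5 encodes the carnitine transporter OCTN2 (ENSMUSG00000018900, GRCm38 chromosome 11, 53864542 to 53891660), and it measured 188, 161, 177 and 197 CPM under ad libitum and 298, 219, 256 and 249 CPM under time-restricted feeding. The groups did not overlap, for a log2 difference of 0.50 ± 0.15 (SE, adjusted p = 0.465). Cpt1a, which forms acylcarnitine at the outer membrane (ENSMUSG00000024900, GRCm38 chromosome 19, 3322334 to 3385733), measured 366, 309, 294 and 341 CPM in the ad libitum libraries and 503, 399.8, 449.6 and 469 CPM in the time-restricted ones, also without overlap, with a log2 difference of 0.48 ± 0.16 (SE, adjusted p = 0.562). Slc25a20 is the carrier that moves acylcarnitine across the inner membrane (ENSMUSG00000032602, GRCm38 chromosome 9, 108662088 to 108684641). At 64, 69.9, 80.7 and 86.2 CPM under ad libitum and 92.3, 129.8, 126 and 114 CPM under time-restricted feeding, it differed by 0.62 ± 0.14 (SE, adjusted p = 0.186) and did not overlap. Cpt2, which releases the acyl group inside (ENSMUSG00000028607, GRCm38 chromosome 4, 107903981 to 107923610), was at 178, 216, 208 and 236 CPM in the ad libitum libraries and 289, 356, 340.2 and 319 CPM in the time-restricted ones, without overlap, and its log2 difference was 0.64 ± 0.17 (SE, adjusted p = 0.333). The PPAR element, a pair of AGGTCA half-sites with 1 base between them, searched on both strands in RefSeq promoter windows of GRCm38.p6 from 250 bases before to 50 after a gene's start, was found in 0 of 19 members of this list with a window, in 0 of 18 of the PPAR-alpha list and in 0.0481% of all genes. Those letters are not in these windows, which says nothing of sites elsewhere.

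Of the enzymes of the cycle, medium-chain dehydrogenase Acadm (ENSMUSG00000062908, GRCm38 chromosome 3, 153922357 to 153944632) measured 799, 1204, 1209.5 and 1279 CPM under ad libitum and 1341, 1612, 1442 and 1484 CPM under time-restricted feeding. Ad libitum 1 was far below the other 3 of its group, and the log2 difference of 0.39 ± 0.18 (SE, adjusted p = 0.759) was 0.58 in the early positions, which hold that library, and 0.23 in the late ones. Acaa2, the thiolase that ends the cycle, differed by 0.67 ± 0.21 (SE, adjusted p = 0.526) without overlap. Decr1 and Eci2 handle the double bonds of unsaturated fatty acids, as reductase and isomerase (ENSMUSG00000028223, GRCm38 chromosome 4, 15917240 to 15945507) (ENSMUSG00000021417, GRCm38 chromosome 13, 34977748 to 35027096). Decr1 measured 323, 356, 358 and 369 CPM in the ad libitum libraries and 498, 525, 514 and 545 CPM in the time-restricted ones. Eci2 measured 148, 164, 159.8 and 177 CPM under ad libitum and 228, 244, 228 and 233 CPM under time-restricted feeding. In both, the lowest time-restricted library was well above the highest ad libitum one, with log2 differences of 0.57 ± 0.13 (SE, adjusted p = 0.23) and 0.52 ± 0.11 (SE, adjusted p = 0.186). The 31 genes of the nuclear respiratory chain list differed less, with a median of 0.12, although 27 were positive. Of these 31, 0 had an unadjusted p under 0.05, beside 6.45% of all genes in either direction. In 5 the groups did not overlap, all higher, beside 2.85% of all genes.

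The 8 genes of the ketone list had a median log2 difference of 0.10, and 7 were positive. At an unadjusted p under 0.05, 2 were higher and 0 lower, beside 3.12% and 3.32% of all genes. In 2 the groups did not overlap, all higher, beside 2.85% of all genes. Slc16a1 is a monocarboxylate transporter, which measured 15.1, 14.6, 14.8 and 15.7 CPM in the ad libitum libraries and 19.6, 16.5, 16.3 and 25.1 CPM in the time-restricted ones and differed by 0.36 ± 0.15 (SE, adjusted p = 0.723). Oxct1, the enzyme that burns ketone bodies, differed by 0.01.

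Outside these lists, the gene with the smallest adjusted p among those averaging 5 CPM or more was Cyp2j9, a P450 of the arachidonic acid epoxygenase family (ENSMUSG00000015224, GRCm38 chromosome 4, 96568429 to 96591578). It measured 37.6, 30.3, 38.4 and 30.8 CPM under ad libitum and 74.3, 65.9, 48.2 and 82.2 CPM under time-restricted feeding, without overlap, and differed by 0.98 ± 0.15 (SE, adjusted p = 0.0736). Leaving out time-restricted 3, its lowest time-restricted library, moved the adjusted p of Cyp2j9 to 0.00532. Itgbl1, at the same adjusted p, averaged 0.639 CPM under ad libitum and 0.0283 CPM under time-restricted feeding, the second below the limit set by a count of 0. Nr1h4, the bile acid receptor FXR (ENSMUSG00000047638, GRCm38 chromosome 10, 89454234 to 89533585), measured 161, 117, 134 and 128 CPM in the ad libitum libraries and 283, 240.5, 197.5 and 261 CPM in the time-restricted ones and differed by 0.86 ± 0.16 (SE, adjusted p = 0.127). Dgkh, a diacylglycerol kinase (ENSMUSG00000034731, GRCm38 chromosome 14, 78558750 to 78732776), measured 72.3, 62, 70.8 and 81.2 CPM under ad libitum and 119, 108, 116 and 156 CPM under time-restricted feeding, for a log2 difference of 0.80 ± 0.14 (SE, adjusted p = 0.091). Neither gene's groups overlapped.

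Txnip encodes a thioredoxin-binding protein that limits glucose uptake (ENSMUSG00000038393, GRCm38 chromosome 3, 96557957 to 96561883). Its libraries were at 321, 274, 265 and 228 CPM in the ad libitum libraries and 389.9, 418, 418 and 497 CPM in the time-restricted ones, for a log2 difference of 0.66 ± 0.14 (SE, adjusted p = 0.151). Lgals4, a galectin, differed by 0.98 ± 0.20 (SE, adjusted p = 0.151), without overlap. Lpl, the lipase that frees fatty acids from circulating triglyceride (ENSMUSG00000015568, GRCm38 chromosome 8, 68880491 to 68907448), measured 469.6, 1007, 1753 and 1526 CPM under ad libitum and 2187, 2122, 1848 and 2363 CPM under time-restricted feeding. Ad libitum 1 was the lowest library by far, and the log2 difference of 0.84 ± 0.33 (SE, adjusted p = 0.682) was 1.65 in the early positions, which hold it, and 0.35 in the late ones. Slc22a7, an organic anion transporter of the proximal tubule, was also lowest in ad libitum 1, at 67.8 CPM against 213 to 407 CPM in the other 7 libraries.

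On the other side, a desaturase gene and a regulator of lipid synthesis were lower. Scd2, a stearoyl-CoA desaturase (ENSMUSG00000025203, GRCm38 chromosome 19, 44293674 to 44306864), measured 99.7, 115, 114 and 95.8 CPM in the ad libitum libraries and 64.2, 79.3, 71.1 and 56.7 CPM in the time-restricted ones. The groups did not overlap, and the log2 difference was −0.65 ± 0.14 (SE, adjusted p = 0.186). Srebf1, the transcription factor of lipid synthesis (ENSMUSG00000020538, GRCm38 chromosome 11, 60199089 to 60222581), was at 16.8, 17.7, 19.1 and 18.6 CPM under ad libitum and 15.1, 15.8, 12.4 and 7.5 CPM under time-restricted feeding. It was lowest in time-restricted 4, and its log2 difference of −0.50 ± 0.21 (SE, adjusted p = 0.729) was −0.16 in early and −0.96 in late positions.

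The lists of lipid synthesis genes were mixed. Of 21 fatty acid and triglyceride synthesis genes, 12 had a positive and 9 a negative log2 difference. The median was 0.10, with 0.22 in early and −0.07 in late positions. At an unadjusted p under 0.05, 1 was higher and 2 lower, beside 3.12% and 3.32% of all genes. Groups did not overlap in 1 higher and 3 lower, beside 2.85% and 2%. The list's mean log2 CPM was highest in time-restricted 2 (6.17) and lowest in time-restricted 4 (5.23). The 24 cholesterol synthesis genes had a median of 0.04. Fasn, fatty acid synthase, ranged from 31.8 to 49.2 CPM under ad libitum and from 13.6 to 96.5 CPM under time-restricted feeding, with a log2 difference of 0.10 ± 0.55 (SE, adjusted p = 1) whose sign turned under several settings. Its 96.5 CPM was that of time-restricted 2, and without that library the log2 difference was −0.62.

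The largest log2 difference among tubule transporters was that of Slc7a12, an amino acid transporter (ENSMUSG00000039710, GRCm38 chromosome 3, 14480697 to 14505830). It measured 16, 6.24, 7 and 5.55 CPM in the ad libitum libraries and 0.677, 1.13, 3.6 and 0.733 CPM in the time-restricted ones. Each time-restricted library was below each ad libitum library, and the log2 difference was −2.48 ± 0.64 (SE, adjusted p = 0.356). Thbd, the endothelial thrombomodulin gene (ENSMUSG00000074743, GRCm38 chromosome 2, 148404466 to 148408188), was at 12.6, 13.6, 8.82 and 9.97 CPM under ad libitum and 7.62, 6.95, 8.32 and 6.19 CPM under time-restricted feeding and differed by −0.63 ± 0.14 (SE, adjusted p = 0.195). Ctss, a lysosomal protease of antigen-presenting cells (ENSMUSG00000038642, GRCm38 chromosome 3, 95526786 to 95556403), was at 18.2, 21.2, 11.7 and 17.7 CPM in the ad libitum libraries and 8.76, 11.4, 10.5 and 9.04 CPM in the time-restricted ones and differed by −0.79 ± 0.18 (SE, adjusted p = 0.22). Also among the 10 smallest p on the lower side were Banp (−0.60 ± 0.15), a chromatin protein gene, the DNA repair gene Apex2 (−0.57 ± 0.14) and the tubulin gene Tubb2a (−0.68 ± 0.17).

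Cytosolic heat shock genes were lower under time-restricted feeding, and 1 ad libitum library carried much of that. Of 18 genes on the heat shock and cold-inducible list, 13 had an unadjusted p under 0.05, all lower, where 3.32% of all genes did so. In 3 the groups did not overlap (2% of all genes lower), and none passed the adjusted threshold. The median was −0.50, with −0.20 in early and −0.68 in late sheet positions. Without ad libitum 4 the count with an unadjusted p under 0.05 fell to 4. Over the other 7 libraries left out in turn it was 9 to 13.

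Hspa1a and Hspa1b are the inducible HSP70 genes, neighbours with nearly the same sequence, so that reads can be shared between them. Hspa1a (ENSMUSG00000091971, GRCm38 chromosome 17, 34969190 to 34972156) measured 8.54, 17.1, 19.7 and 34.6 CPM under ad libitum and 5.33, 7.66, 7.69 and 4.56 CPM under time-restricted feeding. Ad libitum 4 was the highest and ad libitum 1 close to the time-restricted libraries, without overlap, for a log2 difference of −1.64 ± 0.32 (SE, adjusted p = 0.127). Without ad libitum 1, the adjusted p of Hspa1a was 0.0291. Hspa1b (ENSMUSG00000090877, GRCm38 chromosome 17, 34956436 to 34959238) measured 10.5, 25.9, 33.6 and 66.8 CPM in the ad libitum libraries and 6.01, 19.1, 9.58 and 6.68 CPM in the time-restricted ones, which overlapped, with a log2 difference of −1.70 ± 0.47 (SE, adjusted p = 0.444).

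Cochaperones of HSP90 followed. Chordc1 (ENSMUSG00000001774, GRCm38 chromosome 9, 18292125 to 18317442) measured 79.5, 73.3, 84.9 and 107 CPM under ad libitum and 59.2, 52.6, 61.4 and 66.7 CPM under time-restricted feeding, without overlap, for a log2 difference of −0.52 ± 0.17 (SE, adjusted p = 0.533). The log2 differences of Stip1, which links HSP70 to HSP90, and of Fkbp4 were −0.48 ± 0.16 (SE, adjusted p = 0.56) and −0.40 ± 0.13 (SE, adjusted p = 0.542), with overlap. Hspa8, the constitutive HSP70, ranged from 3303 to 5656 CPM under ad libitum feeding, highest in ad libitum 4, and from 2985 to 3715 CPM under time-restricted feeding. Its log2 difference was −0.25 ± 0.19 (SE, adjusted p = 0.917).

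The cold-inducible members, RNA-binding proteins that are made when body temperature drops, lay on the other side. Cirbp (ENSMUSG00000045193, GRCm38 chromosome 10, 80165985 to 80172786) measured 33.8, 33.7, 27 and 18.5 CPM in the ad libitum libraries and 41.2, 42.5, 34.4 and 29.7 CPM in the time-restricted ones. It was lowest in ad libitum 4, where Hspa1a was highest, and the log2 difference was 0.39 ± 0.18 (SE, adjusted p = 0.775). Rbm3 differed by 0.25 ± 0.13 (SE, adjusted p = 0.834), with overlap. The mitochondrial chaperone genes Hspd1 and Hspe1 had log2 differences of 0.11 and −0.08. The heat shock element, read as GAA, TTC and GAA with any 2 bases between neighbours and searched on both strands from 250 bases before to 50 after each gene's start in RefSeq windows of GRCm38.p6, was found in 4 of 14 list members with a window (28.6%: Hsph1, Hspd1, Hspe1 and Chordc1) and in 0.662% of all genes. These 4 had log2 differences from −0.61 to 0.11. The matches of Hspd1 and Hspe1 are the same bases, read on opposite strands, and are counted for both genes.

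Genes of the unfolded protein response were lower as well. All 19 had a negative log2 difference, from −1.55 to −0.06, with a median of −0.30. An unadjusted p under 0.05 was reached by 9 and groups did not overlap in 5, beside 3.32% and 2% of all genes. None passed the adjusted threshold. Without ad libitum 4 the count with an unadjusted p under 0.05 was 5. Over the other 7 libraries left out in turn it was 6 to 10. The median was −0.21 in early and −0.42 in late positions.

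Many of these genes carry the ER stress element, a pair of half-sites, CCAAT and CCACG, 9 bases apart, where NF-Y and ATF6 bind. The motif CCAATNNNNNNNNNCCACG was searched on both strands in RefSeq promoter windows of GRCm38.p6, from 250 bases before to 50 after a gene's start. It was found in 7 of the 16 list members with a window (43.8%), and in 0.137% of all 27025 genes with a window. These 7 members had log2 differences from −0.96 to −0.06, so that a match went with large and small differences alike. Starts are those of RefSeq. The Hspa5 stretch below lies within the coordinates printed for that gene, which are those of GENCODE M21. Shown 5′ to 3′ on the gene's strand, with the half-sites in capitals, are the stretches of the matching gene with the largest difference (Creld2), of the master chaperone (Hspa5), and of 2 others whose differences were smaller.
Creld2 (chr15:88819505-88819553, plus strand): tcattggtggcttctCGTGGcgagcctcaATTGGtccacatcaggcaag
Hspa5 (chr2:34772010-34772058, plus strand): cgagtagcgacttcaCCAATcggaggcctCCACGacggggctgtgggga
Pdia6 (chr12:17266476-17266524, plus strand): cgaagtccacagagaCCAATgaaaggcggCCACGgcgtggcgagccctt
Calr (chr8:84847060-84847108, minus strand): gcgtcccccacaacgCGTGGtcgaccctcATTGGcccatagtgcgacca

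Creld2 encodes a secreted ER stress factor (ENSMUSG00000023272, GRCm38 chromosome 15, 88819646 to 88826683); it measured 39.4, 55.9, 59.4 and 101.3 CPM under ad libitum and 30.3, 35.2, 35.8 and 30.3 CPM under time-restricted feeding. All time-restricted libraries were below all ad libitum ones, of which the fourth was the highest, and the log2 difference was −0.96 ± 0.22 (SE, adjusted p = 0.209). Hspa5, the ER chaperone BiP (ENSMUSG00000026864, GRCm38 chromosome 2, 34771970 to 34777547), measured 603, 665, 773 and 1178 CPM in the ad libitum libraries and 458, 491, 479 and 635 CPM in the time-restricted ones. The groups overlapped through ad libitum 1 and time-restricted 4, with a log2 difference of −0.64 ± 0.22 (SE, adjusted p = 0.579). Pdia6, a disulfide isomerase, and Calr, the lectin chaperone calreticulin, had log2 differences of −0.24 and −0.30.

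The largest difference of the list was that of Sdf2l1, part of an ER chaperone complex (ENSMUSG00000022769, GRCm38 chromosome 16, 17130138 to 17132383). It measured 5.81, 9.81, 8.25 and 19.6 CPM under ad libitum and 3.47, 4.32, 3.96 and 2.77 CPM under time-restricted feeding, without overlap, for a log2 difference of −1.55 ± 0.29 (SE, adjusted p = 0.127). Without ad libitum 1, the adjusted p of Sdf2l1 was 0.0389. Manf, a secreted ER stress factor (ENSMUSG00000032575, GRCm38 chromosome 9, 106838312 to 106891979), was at 66.3, 92.2, 104 and 163 CPM in the ad libitum libraries and 54.6, 61.8, 56.4 and 62.2 CPM in the time-restricted ones and differed by −0.85 ± 0.24 (SE, adjusted p = 0.409), without overlap. Pdia5, a disulfide isomerase outside the list (ENSMUSG00000022844, GRCm38 chromosome 16, 35397312 to 35490873), was at 14.1, 17, 16.6 and 16.5 CPM under ad libitum and 11.3, 10.5, 10.7 and 10.3 CPM under time-restricted feeding. It was not raised in ad libitum 4, and its log2 difference was −0.58 ± 0.13 (SE, adjusted p = 0.197). Hyou1 and Ddit3, an ER chaperone gene and the stress factor CHOP, had log2 differences of −0.70 ± 0.21 (SE, adjusted p = 0.49) and −0.54 ± 0.17 (SE, adjusted p = 0.49).

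**Figure D3:**
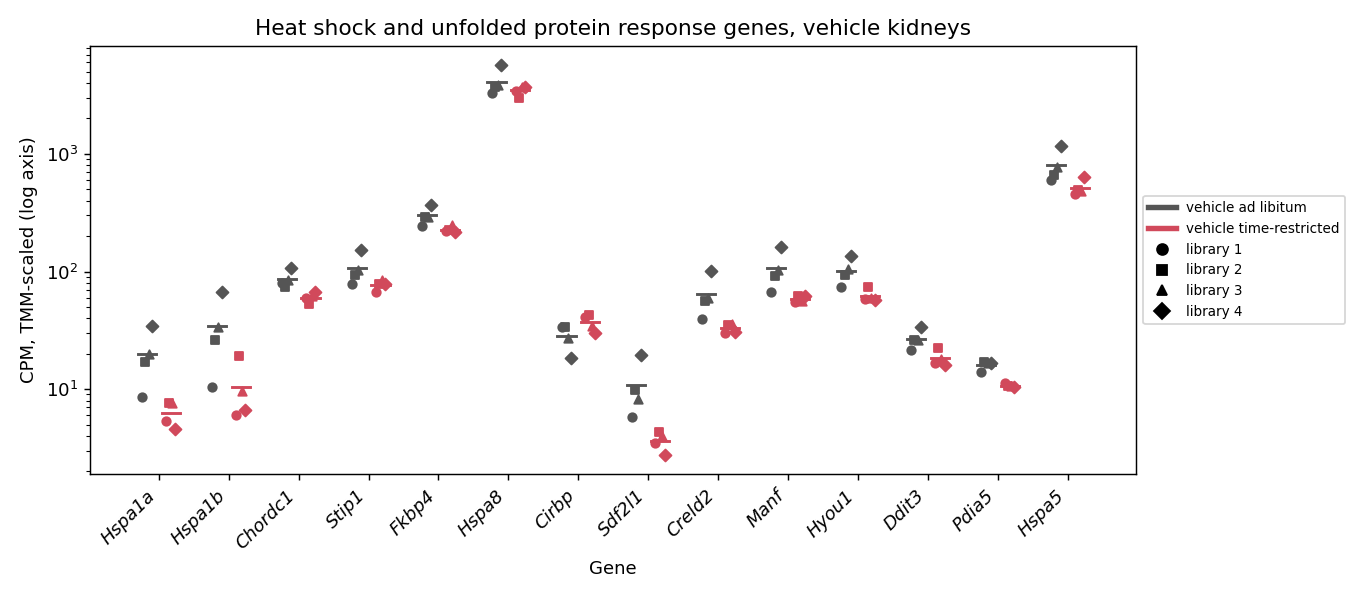
Level of 14 heat shock, cold-inducible and unfolded protein response genes in each vehicle library, in TMM-scaled CPM on a log axis; symbols give the library number, colours the regimen and short lines the group mean (n = 4). Ad libitum 4 (diamonds) is the highest library for 12 of the 14 genes and the lowest for Cirbp (18.5 CPM), while Pdia5 separates the regimens without it.

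In all 19 core clock genes the groups overlapped, and the median log2 difference was −0.03. At an unadjusted p under 0.05, 1 was higher and 1 lower, beside 3.12% and 3.32% of all genes. These were Fbxl21, a Cry-binding ligase gene (0.78), and Csnk1e, a kinase of Per proteins (−0.40). Arntl, the activator BMAL1 (ENSMUSG00000055116, GRCm38 chromosome 7, 113207465 to 113314126), measured 0.84, 1.23, 2.16 and 1.51 CPM in the ad libitum libraries and 0.847, 2.16, 0.72 and 1.47 CPM in the time-restricted ones. Its partner Clock measured 36.3, 34.6, 34.1 and 36 CPM under ad libitum and 35.8, 31.6, 32.2 and 39.5 CPM under time-restricted feeding. Both groups of each gene overlapped, and the 95% interval of the log2 difference ran from −0.83 to 0.60 for Arntl and from −0.29 to 0.25 for Clock. The repressors Per1, Per2, Per3, Cry1 and Cry2 had log2 differences of 0.01, −0.28, −0.05, −0.26 and −0.03. For Per2 (ENSMUSG00000055866, GRCm38 chromosome 1, 91415982 to 91459324), which measured 89.3, 72.9, 67.6 and 111 CPM in the ad libitum libraries and 79.8, 59.6, 80.1 and 60.2 CPM in the time-restricted ones, the interval was −0.62 to 0.06.

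Of the second loop, Nr1d1 (REV-ERB alpha) measured 17.6, 26.3, 22 and 23.4 CPM under ad libitum and 19, 34.5, 15.9 and 11 CPM under time-restricted feeding. It differed by −0.14 ± 0.43 (SE, adjusted p = 0.997) with an interval of −1.05 to 0.77, the widest of the clock genes named here. Nr1d2 differed by 0.15. Of 20 output genes, 0 were higher and 1 (Leo1) was lower at an unadjusted p under 0.05, beside 3.12% and 3.32% of all genes. The median was 0.03, and in 2 the groups did not overlap, all higher, beside 2.85% of all genes. Dbp, the output factor that follows the clock most steeply, measured 27.5, 30.1, 34 and 29 CPM in the ad libitum libraries and 40.4, 46.7, 29.1 and 30.9 CPM in the time-restricted ones, with a log2 difference of 0.29 ± 0.32 (SE, adjusted p = 0.974) and an interval of −0.40 to 0.98. Tef was higher in each time-restricted library (458 to 507 CPM) than in each ad libitum library (420.0 to 458 CPM), by a log2 difference of 0.15 ± 0.13 (SE, adjusted p = 0.947). Hlf, Nfil3 and Ciart had log2 differences of −0.06, 0.00 and 0.42. The E-box CACGTG, the letters that Clock and Arntl bind, lay in the promoter windows of 2 of 14 core clock genes (14.3%: Per1 and Cry1), of 6 of 16 output genes (37.5%: Tef, Ciart, Bhlhe41, Klf15, Lonrf3 and Gpr146) and of 8.09% of all genes. The 6 output genes had log2 differences from −0.32 to 0.42.

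**Figure D4:**
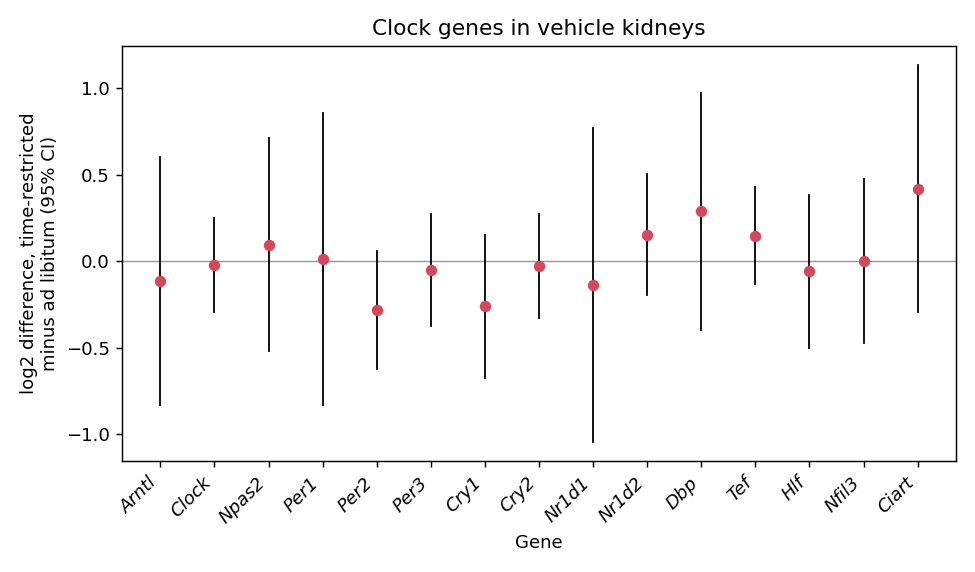
Log2 difference of 15 clock and output genes, vehicle time-restricted minus vehicle ad libitum (points, n = 4 per group), with 95% intervals from edgeR's fit. Every interval includes 0, and they run from narrow ones such as that of Clock (−0.29 to 0.25) to wide ones such as that of Nr1d1 (−1.05 to 0.77).

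Glucocorticoid targets, which follow the daily corticosterone rhythm, had a median of 0.15. Of these 18, 1 was higher and 0 lower at an unadjusted p under 0.05, beside 3.12% and 3.32% of all genes. Fkbp5 measured 91.1, 85.5, 58.2 and 79.9 CPM under ad libitum and 143, 80.2, 85.6 and 90.6 CPM under time-restricted feeding and differed by 0.34 ± 0.23 (SE, adjusted p = 0.895). Of 43 proximal tubule transport genes, 34 had a positive log2 difference. Their median was 0.17, a little above the upper quartile of all genes (0.12). At an unadjusted p under 0.05, 3 were higher and 1 lower, beside 3.12% and 3.32% of all genes. The megalin gene Lrp2 measured 1875, 1557, 1554 and 1808 CPM in the ad libitum libraries and 1892, 1447, 1677 and 1913 CPM in the time-restricted ones, with a log2 difference of 0.03 ± 0.19 (SE, adjusted p = 1). The phosphate transporter Slc34a1 differed by 0.11 ± 0.28 (SE, adjusted p = 0.996), uromodulin Umod by 0.19 ± 0.25 (SE, adjusted p = 0.984), the thiazide-sensitive Slc12a3 by −0.10 ± 0.23 (SE, adjusted p = 0.996) and the water channel Aqp2 by −0.64 ± 0.63 (SE, adjusted p = 0.959).

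Of 21 tubule injury genes 15 had a negative log2 difference, and the median was −0.30, as far from 0 as that of the unfolded protein response list. It was −0.14 in early and −0.25 in late sheet positions. In this list 0 genes reached an unadjusted p under 0.05 by edgeR, beside 6.45% of all genes in either direction, and 0 were without overlap. Among the 15 were the adhesion genes Cdh6 (−0.47) and Cd44 (−0.61), the annexin gene Anxa2 (−0.41) and the protease inhibitor gene Timp1 (−0.84). Havcr1, which encodes KIM-1, and Lcn2, which encodes NGAL, were among the 6 positive members, at 0.08 and 0.23. Havcr1 measured 2.55, 6.73, 7.38 and 5.68 CPM under ad libitum and 2.41, 10.1, 2.79 and 8.31 CPM under time-restricted feeding. Lcn2 measured 4.94, 15.7, 14.2 and 11.3 CPM in the ad libitum libraries and 4.87, 22.8, 12.5 and 13.4 CPM in the time-restricted ones.

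Endothelial and several immune gene lists had negative medians under time-restricted feeding, farther from 0 in libraries 1 and 2 than in libraries 3 and 4. All 16 endothelial genes had a negative log2 difference (median −0.43), 6 with an unadjusted p under 0.05, beside 3.32% of all genes lower, and 1 without overlap, beside 2%. The median was −0.64 in early and −0.22 in late positions. The 6 became 2 without ad libitum 2, or without time-restricted 1, 3 without ad libitum 1, or without time-restricted 4, and 9 without ad libitum 4. Plvap, a protein of fenestrated capillaries (ENSMUSG00000034845, GRCm38 chromosome 8, 71497765 to 71511752), measured 72.4, 79.3, 46.6 and 60.4 CPM under ad libitum and 37.1, 50.5, 48.3 and 29.3 CPM under time-restricted feeding. The groups overlapped, and the log2 difference was −0.64 ± 0.20 (SE, adjusted p = 0.492). Tek, the angiopoietin receptor, measured 25.9, 35.1, 25.9 and 26.7 CPM in the ad libitum libraries and 18.2, 22.3, 23.5 and 20.7 CPM in the time-restricted ones, without overlap, and differed by −0.43 ± 0.16 (SE, adjusted p = 0.661). Flt1, Kdr, Tie1 and Emcn had log2 differences between −0.53 and −0.43.

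Of 21 macrophage and dendritic cell genes, 4 were lower and 0 higher at an unadjusted p under 0.05, beside 3.32% and 3.12% of all genes, with a median of −0.40 (−0.64 in early and −0.11 in late positions). C1qa, a complement subunit made by macrophages, measured 33, 40.2, 16.9 and 30.2 CPM under ad libitum and 18.5, 16.9, 24.6 and 16.5 CPM under time-restricted feeding and differed by −0.65 ± 0.23 (SE, adjusted p = 0.612). Ccr2, the receptor of inflammatory monocytes, differed by −0.89 ± 0.26 (SE, adjusted p = 0.485). The summed level of 3 defining macrophage markers was 85 to 139 CPM under ad libitum and 67.3 to 96.9 CPM under time-restricted feeding.

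The T and NK cell, interferon and neutrophil lists had the same sign. The 10 B and plasma cell genes tested had a median of −0.02 (0.02 in early and −0.51 in late positions), with 4 positive and 6 negative. Outside immune genes, 24 of 28 extracellular matrix genes (median −0.23) and 10 of 12 myofibroblast and pericyte genes (median −0.32) were negative. Of these 2 lists, 0 genes were lower at an unadjusted p under 0.05. All 15 T and NK cell genes were negative, with a median of −0.53 that was −0.75 in early and −0.04 in late positions, and 3 were lower at an unadjusted p under 0.05. All 21 interferon response genes were negative as well, with a median of −0.25 (−0.54 in early and 0.03 in late positions), and 3 were lower (Rsad2, Gbp2 and Irf1). The 7 neutrophil genes tested, of 9 listed, had a median of −1.01 (−1.09 in early and −0.54 in late positions), and 1, S100a8, was lower. Shares of all genes were as above, and no gene of these lists passed the adjusted threshold. T and NK cell and neutrophil transcripts were scarce: the highest group mean was 1.75 CPM (Lck) in the first list and 1.16 CPM (Csf3r) in the second. Proliferation genes had 5 of 21 higher and 0 lower, beside 3.12% and 3.32% of all genes, and the 5 had means of at most 1.53 CPM. The median of that list was 0.20, with 0.01 in early and 0.44 in late positions.

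Fat and blood differed between single libraries. The 4 adipocyte markers (Adipoq, Plin1, Cfd, Ucp1), none at 0 in all libraries, summed to 286 CPM in time-restricted 2 and 151 CPM in ad libitum 3, and to 3.10 to 38.8 CPM in the other 6. The list's 12 genes had a median log2 difference of 0.57, which was 1.44 in early and −2.64 in late positions. Genes of the PPAR-alpha list, Plin5, Plin4, Cidec and Plin2 among them, are also made by adipocytes, and the part of adipocytes in the result was not tested. Without time-restricted 2, 14 genes of the PPAR-alpha list and 13 of the fatty acid oxidation list had an unadjusted p under 0.05. The 3 erythrocyte markers summed to 11.7 CPM in ad libitum 2 and to 74.8 to 415 CPM elsewhere.

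The same feeding contrast in FAN kidneys, which shares no library with the one in vehicle, was much wider. It called 5639 genes (31.8%), 3180 (17.9%) higher and 2459 (13.9%) lower, and the interaction, which tests whether the feeding difference itself differed between FAN and vehicle, called 1625 (9.16%), 1376 (7.76%) with a larger value in FAN and 249 (1.4%) with a smaller one. In the PPAR-alpha and fasting list 21 of 26 genes rose in FAN, with a median of 1.62, and 6 passed the interaction. In the fatty acid oxidation list 20 of 22 rose, with a median of 1.28, and 15 passed the interaction, all with a larger value in FAN.

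Some fasting genes had about the same difference in both. Pdk4 differed by 1.96 in vehicle and rose by 2.12 in FAN, with an interaction of 0.16, adjusted p = 0.894. For Angptl4 the values were 1.11 and 0.92, with an interaction of −0.18, adjusted p = 0.729, and for Cyp2j9 they were 0.98 and 1.12, with an interaction of 0.14, adjusted p = 0.73. Scd2, lower in vehicle by a log2 difference of −0.65, fell by 0.85 in FAN, with an interaction of −0.21, adjusted p = 0.565. An interaction that misses the threshold does not show that the differences were alike.

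Others differed between the treatments. Vnn1, with 0.95 in vehicle, rose by 2.14 in FAN, an interaction of 1.20, adjusted p = 0.00602. Decr1, at 0.57, rose by 1.50 in FAN (interaction 0.94, adjusted p = 0.00395), and Acadm, at 0.39, rose by 1.82 (interaction 1.44, adjusted p = 0.00118). The heat shock list was on opposite sides, with a median of −0.50 in vehicle and 0.25 in FAN, and 8 of its 18 genes passed the interaction, all with a larger value in FAN, beside 7.76% of all genes. Of that list, Hspa1a was negative in both, at −1.64 in vehicle and −0.12 in FAN (interaction 1.52, adjusted p = 0.041). In the unfolded protein response list 3 of 19 genes passed the interaction, all with a larger value in FAN, beside 7.76% of all genes. Its median was −0.30 in vehicle and 0.06 in FAN. Creld2, of this second list, had −0.96 in vehicle and 0.34 in FAN (interaction 1.29, adjusted p = 0.0121). In vehicle, ad libitum 4 held the highest level of both Hspa1a and Creld2. Without that library, the heat shock genes lower in vehicle at an unadjusted p under 0.05 fell from 13 to 4. The interaction count over all genes then fell from 1625 to 1160, and that of the heat shock list was not tested.

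The smallest interaction p-values belonged to tubule enzymes that were close between regimens in vehicle. Acy1, an aminoacylase (ENSMUSG00000023262, GRCm38 chromosome 9, 106432981 to 106438319), measured 269, 319.5, 321 and 326 CPM in the ad libitum libraries and 268, 309, 307 and 283 CPM in the time-restricted ones, a log2 difference of −0.08 ± 0.12 (SE, adjusted p = 0.992), and rose by 2.0 in FAN (interaction 2.08, adjusted p = 3.24e-06). Nat8, which acetylates cysteine conjugates, had 0.01 in vehicle and rose by 2.36 in FAN. Cmbl, Hsd3b3, Sugct and Etnppl had log2 differences between −0.26 and 0.31 in vehicle and rose by 1.80 to 2.39 in FAN. In the proximal tubule transport list 24 of 43 genes passed the interaction, all with a larger value in FAN, beside 7.76% of all genes. The injury marker Lcn2 had a log2 difference of 0.23 in vehicle and fell by 1.58 in FAN (interaction −1.80, adjusted p = 0.0496).

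**Figure D5:**
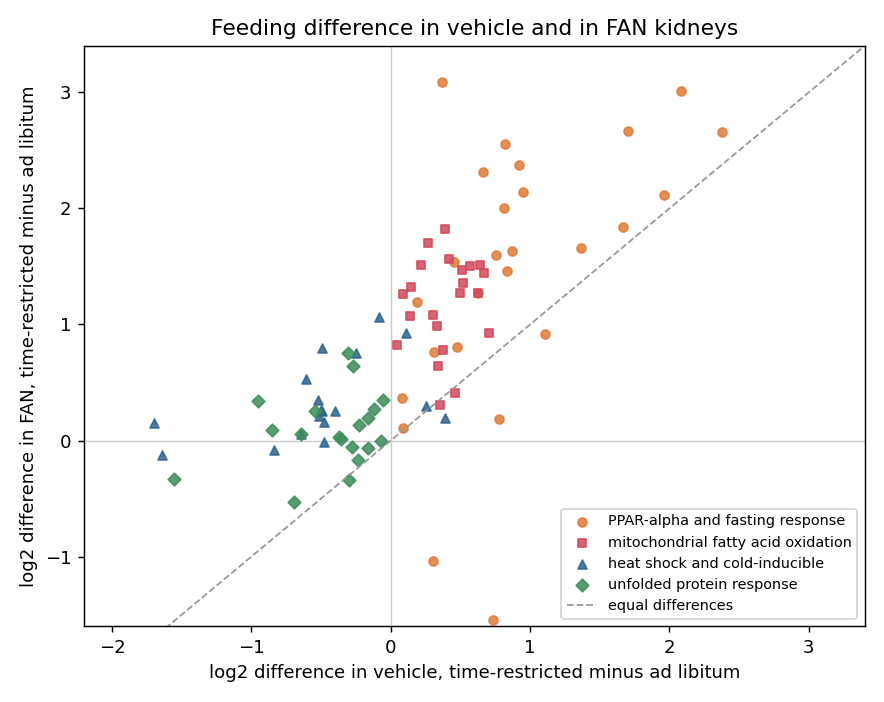
Each point is a tested gene of 4 lists; the x axis gives the log2 difference, time-restricted minus ad libitum, in vehicle and the y axis the same in FAN, from separate libraries (n = 4 per group), and the dashed line marks equal differences. Of the fatty acid oxidation genes 20 of 22 lie above the line, and 15 of 18 heat shock genes are left of 0 in vehicle while 3 of 18 are below 0 in FAN.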

How the data were processed

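Raw read counts per Ensembl gene were deposited by the authors as 1 table of 16 kidney libraries and 52338 genes. Per the labels' protocols, RNA was extracted from frozen kidney powder with TRIzol and libraries were made with a stranded mRNA kit. For the authors' work, the submitters' processing notes name the mm10 build, STAR 2.5.3a, FastQC 0.11.5 and edgeR 3.26.7 without their roles. How reads were counted, and whether by strand, is not given in the sources used here, so reads of overlapping, antisense or near-identical genes may be mixed. Printed coordinates are those of GENCODE M21 (GRCm38) for the Ensembl identifier. Vehicle columns were matched to samples by name, and FAN columns to their group only.

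The analysis used edgeR 4.0.16 in R 4.3.3, with filterByExpr at a minimum count of 10, TMM scaling, and 1 robust quasi-likelihood fit of 4 groups over all 16 libraries. Adjusted p are two-sided Benjamini-Hochberg values over 17731 genes, with a threshold of 0.05. CPM are TMM-scaled, except the limits that a count of 0 (3 counts) allows, which use raw totals and cover counting error only, since reads carry no molecular identifiers. Intervals of log2 differences are 95% intervals of this fit. Any 2 libraries of a vehicle group differed by more than sampling noise (chi-square per gene 18.4 or more). The fit was tested on simulated data. DESeq2 1.42.0 and limma 3.58.1 served as alternatives, beside other scalings, filters, a sheet position term, a replicate block and fits without each vehicle library.

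The 42 gene lists and the named genes were chosen with earlier results of these data known. The naming rule took called genes by size and by list, which gave none, a fixed set of clock, fasting, lipid, stress and tubule genes, and the 6 smallest interaction p. Added after values were seen were the 10 smallest p on each side at a mean of at least 5 CPM, up to 6 members of each list with 25% or more of its members at an unadjusted p under 0.05 in 1 direction, and 19 others. Some of these genes are not reported here.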

Additional observations from a re-analysis of the deposited data

Results flagged for a closer look

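Among 188 groups of 4 vehicle libraries (94 named genes under each regimen), 9 held a library far from the other 3 by Dixon's criterion, close to the 1 in 20 that chance gives. Ad libitum 1 was the distant library for Acadm (lowest, 799 CPM), Acy1 (lowest, 269 CPM), Rbm3 (highest, 100.7 CPM) and Slc7a12 (highest, 16 CPM), and ad libitum 2 for Tek (highest, 35.1 CPM). Under time-restricted feeding it was library 1 for Fkbp5 (highest, 143 CPM), library 2 for Hlf (lowest, 89.2 CPM) and Hyou1 (highest, 73.9 CPM), and library 3 for Slc7a12 (highest, 3.60 CPM).

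For 29 of the 94 named genes, the feeding difference in FAN differed from that in vehicle (interaction at an adjusted p under 0.05 by edgeR's quasi-likelihood test). The value given is the FAN difference minus the vehicle difference on the log2 scale, positive where FAN was above. Among fasting and fatty acid genes it was 1.20 for Vnn1, 1.46 for Cyp4a10, 0.83 for Pex11a, 0.65 for Slc25a20, 0.87 for Cpt2, 0.78 for Slc22a5, 0.94 for Decr1, 0.84 for Eci2, 1.44 for Acadm and 1.68 for Lpl. Chaperone and stress genes had 1.52 for Hspa1a, 1.01 for Hspa8, 0.88 for Chordc1, 0.65 for Fkbp4, 1.29 for Creld2 and 0.80 for Ddit3. The clock output and glucocorticoid genes Hlf, Klf15 and Tsc22d3 had 1.44, 1.57 and 1.15, and the endothelial Tek had 0.81. Tubule genes had 1.40 for Lrp2, 2.37 for Slc22a7, 2.08 for Acy1, 2.36 for Nat8, 1.94 for Cmbl, 2.03 for Hsd3b3, 1.92 for Sugct and 2.65 for Etnppl. Lcn2 was the only negative value, at −1.80.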

How the results depend on the processing

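In vehicle, 0 genes were called, and the number rose to 58 with DESeq2's Wald test, 35 with limma voom, 6 without the low-count filter, and 1 in the vehicle libraries alone with or without a sheet position term (Vnn1 in both). Of list members, 14, 8, 2, 1 and 1 were called in these fits. Leaving out 1 library gave 0 to 2 called genes and 0 to 2 list members (Hspa1a and Sdf2l1 without ad libitum 1, and Cyp2j9 without time-restricted 3). The interaction count of 1625 became 6631 with library size scaling, which moved its median over all genes from 0.02 to −0.57 and that in FAN from −0.02 to −0.67, and 5265 with voom. In FAN, 5639 calls became 11502 and 9349 in the same fits. Without single vehicle libraries the interaction count ran from 1160 to 1485.

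Every named gene with a vehicle difference called in some fit kept its direction in all fits. Signs turned for genes near 0, none of them called in the fits concerned. Library size scaling gave −0.038 for Per1, −0.054 for Nfil3, −0.020 for Lrp2 and −0.046 for Nat8. With voom they were −0.0019 for Npas2, 0.019 for Hlf, −0.15 for Fasn and −0.50 for Havcr1, and with the filter of 1 CPM in 4 vehicle libraries −0.0036 for Nfil3. The replicate block gave −0.22 for Fasn and −0.049 for Havcr1 in the fit of all libraries, and −0.20 and −0.049 in vehicle libraries alone. Fasn was −0.0091 with the sheet position term. Over the fits without 1 vehicle library the differences ran from −0.090 to 0.24 for Npas2, −0.15 to 0.090 for Hlf, −0.085 to 0.18 for Nfil3, −0.62 to 0.39 for Fasn, −0.38 to 0.35 for Havcr1, −0.18 to 0.51 for Lcn2, −0.060 to 0.10 for Nat8, −0.022 to 0.11 for Lrp2, −0.055 to 0.41 for Ppara, −0.54 to 0.15 for Arntl, −0.14 to 0.24 for Per1, −0.097 to 0.015 for Per3, −0.12 to 0.046 for Cry2, −0.085 to 0.023 for Clock, −0.53 to 0.057 for Nr1d1 and −0.28 to 0.0047 for Slc12a3. The cause was not tested.

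Deviations of libraries that share a replicate number across the vehicle groups correlated at 0.18, 0.12, −0.15 and −0.01, and 2 of 4 correlated best with their own number. So few pairs cannot decide whether the numbers pair the samples. With the replicate block, 0 genes were called in both fits, and 1068 had an unadjusted p under 0.05 in the fit of all libraries. Depth limits genes under about 1 CPM most, as a count of 0 in time-restricted 4 allows 0.212 CPM.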
